A study of Homo sapiens with 6 samples.

Results

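The RAB genes encode the largest branch of the small GTPases that steer membrane traffic, and 57 of them were followed here among 18708 transcript clusters measured on each array. A transcript cluster stands for a gene and combines its probe sets. Members were the clusters whose only gene symbol in the array annotation was RAB followed by a digit and then letters or digits, without the genes for RAB-binding or RAB-regulating proteins that share the prefix. Each member had 1 cluster under a symbol of its own. Another cluster, annotated to both ISY1 and RAB43, was left out by this rule. Its difference between the groups was 1.09 log2 units (limma adjusted p = 0.358), without overlap between their arrays, and it cannot be assigned to either gene. The set includes RAB9BP1 (RAB9P1 in the array annotation), a pseudogene, and RAB29 is listed there as RAB7L1. Another 8 RAB genes, among them RAB27A, RAB7B and RAB12, had no cluster under a single symbol and were not analysed here.

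The cells were PLC/PRF/5, an established human hepatocellular carcinoma line. The control group of 3 arrays came from cells transfected with an siRNA against an irrelevant target (siGL), and the knockdown group of 3 arrays from cells transfected with siRNAs against SLU7, a splicing factor of the second catalytic step. RNA was taken at 48 h, and Lipofectamine RNAiMAX was used for transfection in both groups. Nothing in the labels tells separate cultures from repeats of the same one, and the p-values therefore reflect only how far these arrays scattered, which may be technical. Values are log2 expression after RMA, 1 value per cluster and array, with array medians from 6.61 to 6.63. A difference is the mean with SLU7 siRNA minus the mean with control siRNA. The test was limma's moderated test over all clusters, with Benjamini-Hochberg adjustment and a threshold of 0.05, and a gene is said to have risen or fallen only where it passed.

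A RAB protein switches between a GDP-bound form, held in the cytosol by a GDP dissociation inhibitor, and a GTP-bound form on a particular membrane. Exchange factors load it with GTP, GTPase-activating proteins of the TBC-domain family turn it off, and effectors such as tethers, motors and coiled-coil proteins bind the active form. A lipid anchor added by geranylgeranyl transferase holds it to the membrane. Hepatocytes rely on these proteins for the secretion of plasma proteins, for sorting to the bile canalicular surface and for the uptake and recycling of receptors.

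The targeted gene was checked first. SLU7 read 7.89, 7.01 and 7.24 log2 units in control replicates 1 to 3 and 5.84, 5.58 and 6.21 with SLU7 siRNA, so the groups did not overlap. The difference was -1.51 ± 0.31 log2 units (SE, n = 3 per group), with a limma adjusted p of 0.078 that missed the threshold. The first principal component, with 36.6% of the variance, set control replicate 2 and SLU7 siRNA replicate 1 against the remaining 4 arrays, and results are therefore also given within those 2 arrays (a difference between single arrays) and within the other 4. Of 9 measured hepatocyte markers, transferrin (TF, control mean 12.24) and APOA1 (11.55) were well above the lower quartile of the arrays (4.92 on average), while albumin (ALB, 3.87) and APOH (4.83) were below it. All 9 had negative differences, with a median of -0.58 and none past the limma threshold, and their summed level was 13.23 to 13.49 log2 units in control arrays against 12.63 to 12.86 with SLU7 siRNA. Among the blood markers, PTPRC was near the bottom of the scale in both groups (2.05 and 2.13), and CD3E was below the lower quartile (4.47 and 4.76). CD14 (5.08 and 4.99) and HBB (5.94 and 6.07) were above it. The summed blood markers (4 genes) ran from 6.67 to 7.25 in control arrays and from 6.97 to 7.11 with SLU7 siRNA, the endothelial ones (4 genes, all 4 with negative differences, median -0.26) from 8.51 to 8.72 and from 8.11 to 8.80, and the fibroblast and stellate ones (6 genes) from 8.67 to 8.85 and from 8.70 to 8.73. Of the 6 fibroblast and stellate genes, 4 had control means below the lower quartile, and PDGFRB was the brightest (8.36). All 4 endothelial genes had control means above that quartile (5.386 to 7.055). The part of these marker differences in the values that follow was not tested.

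Across the family as a whole the knockdown left the middle of the distribution close to 0, and a few members lay far below it. Of the 57 members, RAB26 fell, none rose, and 56 did not pass the test. RAB26 makes up 1.75% of the members, and over all clusters 0.299% fell and 0.134% rose by the same test. At an unadjusted limma p under 0.05, 6 members were lower (10.5%, against 6.54% of all clusters) and 0 were higher (against 6.55% of all clusters, and 13.1% in either direction). The member differences had a median of -0.03 log2 units, with 29 below 0 and 28 above, beside a median of 0.00 over all clusters, of which 49.5% were below 0. The median level of the 57 members on each array was 7.55, 7.65 and 7.55 log2 units in control replicates 1 to 3 and 7.44, 7.47 and 7.18 with SLU7 siRNA. Every knockdown array thus lay below every control array in this median of levels, which can rest on different genes on each array, while the median of the differences gene by gene was near 0. Their spread was also like that of the table, with a standard deviation of 0.53 in both, but without RAB26 the members' value was 0.39. Differences beyond 1 log2 unit occurred in 3 members, all lower, which is 5.26% of members against 3.57% of all clusters lower by as much and 3.34% higher. In bulk RNA, lower levels in every cell and fewer cells expressing a gene cannot be told apart, and because a cluster averages all core probe sets of a gene, a change in exon use cannot be told apart from a change in level.

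**Figure D1:**
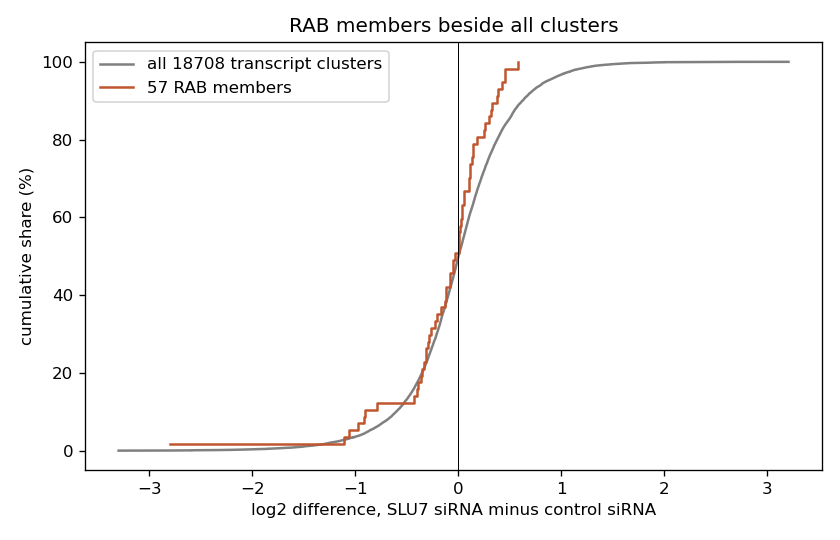
Cumulative share (%, y axis) of log2 differences between SLU7 siRNA and control siRNA (x axis) for the 57 RAB members and for all 18708 clusters. The RAB curve lies to the left of the other at the lower quartile, the median and the upper quartile, most clearly at the upper quartile (0.14 against 0.29), and it runs from RAB26 at -2.80 to 0.59.

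RAB26, a GTPase of secretory granules, was the member with the largest difference. It read 8.54, 7.98 and 8.67 log2 units in the control arrays and 4.71, 6.22 and 5.87 with SLU7 siRNA. Every knockdown array lay at least 1.76 log2 units below every control array, and SLU7 siRNA replicate 1 was the lowest, under the lower quartile of its array. The means were 8.40 ± 0.37 and 5.60 ± 0.79 (SD, n = 3), a difference of -2.80 ± 0.41 log2 units (SE) or 6.95-fold lower (95% interval 3.62 to 13.4), with a limma adjusted p of 0.0455. The difference was -3.27 within the 2 arrays that lay apart and -2.56 within the other 4. The call did not survive the loss of any array. Such a loss also leaves fewer degrees of freedom, and 0 of all clusters were called without any 1 array. The limma adjusted p of RAB26 was 0.165, 0.0632 and 0.180 without control replicates 1, 2 and 3. It was 0.0754, 0.136 and 0.126 without SLU7 siRNA replicates 1, 2 and 3. An exact two-sided permutation test over the arrays gave p = 0.1, the smallest value that 3 against 3 allow.

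RAB37, a close relative of RAB26 that acts in granule exocytosis, had the next lowest p. It read 8.07, 7.90 and 8.21 in the control arrays and 6.87, 6.81 and 7.18 with SLU7 siRNA. The groups were separated by 0.72 log2 units, and the replicates of each lay close together. The difference of -1.11 ± 0.25 log2 units (SE), 2.16-fold lower with a 95% interval of 1.46 to 3.19, had a limma adjusted p of 0.0921 and did not pass. It was nearly the same within the 2 arrays (-1.03) and within the other 4 (-1.15), and it passed under 4 of the alternative settings (adjusted p from 0.0302 to 0.0481 in those 4, and from 0.0846 to 0.309 in the others). One of these settings takes the split between the 2 arrays and the other 4 as a block: RAB26 and RAB37 were then lower and 0 members higher, where 2.28% of all clusters were lower, 1.91% higher and 4.19% either. That split was read off the same arrays, which lowers the error of this fit.

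RAB27B, which docks secretory vesicles and exosome-forming bodies at the plasma membrane, read 5.81, 5.70 and 6.60 in the control arrays and 5.27, 5.02 and 5.09 with SLU7 siRNA. The highest knockdown array was 0.42 below the lowest control array. Its difference was -0.91 ± 0.30 log2 units (SE), with a limma adjusted p of 0.238, and it was -0.42 within the 2 arrays that lay apart against -1.15 within the other 4. The RAB3 isoforms are best known from regulated exocytosis in neurons and endocrine cells. RAB3A read 9.30, 9.34 and 8.40 in the control arrays and 8.85, 8.74 and 8.66 with SLU7 siRNA, with control replicate 3 the lowest of all 6 arrays. Its difference was -0.26 ± 0.31 log2 units (SE, limma adjusted p = 0.83) and ranged from -0.57 to -0.10 when arrays were left out in turn. RAB3D, the isoform of exocrine granules, was at -0.08, while RAB3B (0.25) and RAB3C (0.26) lay above 0, and in all 4 the arrays of the groups overlapped. RAB3C was dim throughout (2.07 and 2.33). Of the 7 members of regulated secretion, 1 fell and 6 did not pass, where 0.299% of all clusters fell. Differences were below 0 in 5 of 7, against 49.5% of all clusters. The median, which is the difference of RAB3A itself, was -0.26 against 0.00 over all clusters.

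**Figure D2:**
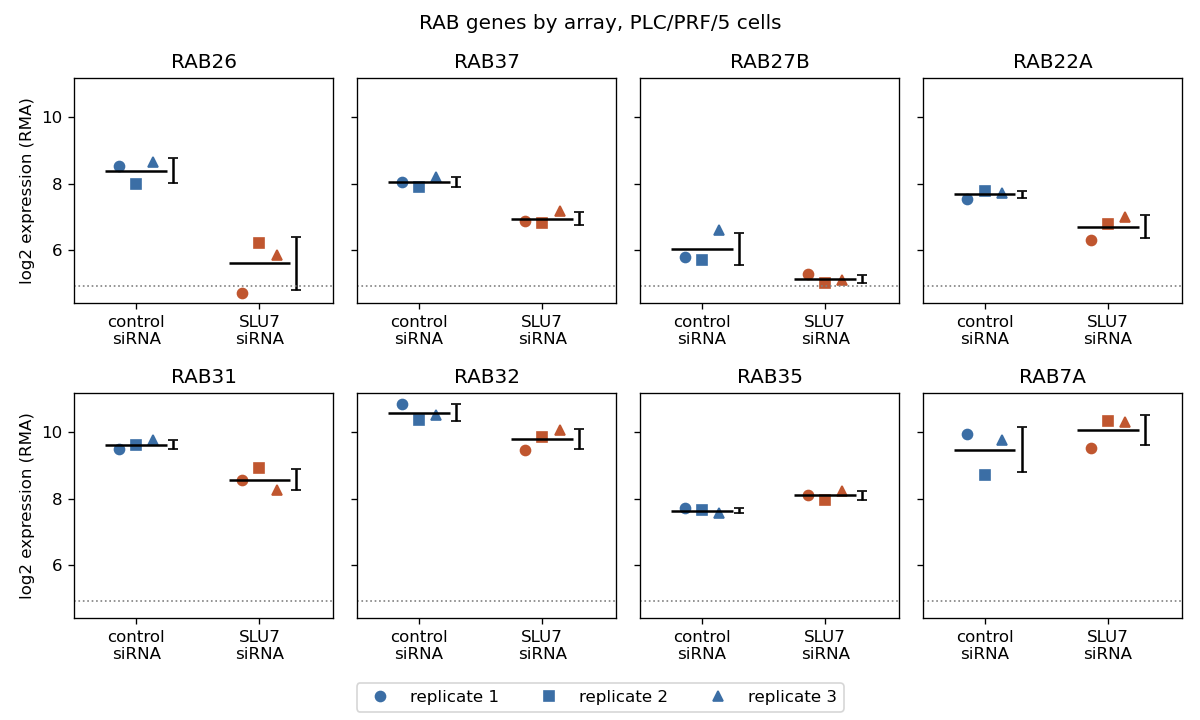
Log2 expression (y axis) of 8 RAB members on each array, with control siRNA in blue and SLU7 siRNA in orange, replicate number by symbol shape, the group mean as a bar and the SD (n = 3) beside it. The dotted line is the mean lower quartile of the arrays (4.92). The groups lie apart in every panel except RAB7A, and RAB26 shows the widest gap.

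Among the 16 members of early and recycling endosomes, RAB31 and RAB22A had the lowest p. They belong to the RAB22 branch, which acts between the trans-Golgi network, early endosomes and recycling tubules. RAB31 read 9.50, 9.63 and 9.78 in the control arrays and 8.56, 8.91 and 8.27 with SLU7 siRNA. Its difference was -1.06 ± 0.27 log2 units (SE), 2.08-fold lower, with a limma adjusted p of 0.127. RAB22A read 7.55, 7.77 and 7.72 in the control arrays and 6.32, 6.80 and 7.01 with SLU7 siRNA, a difference of -0.97 ± 0.27 (SE), 1.96-fold lower, with a limma adjusted p of 0.157. The groups lay 0.59 log2 units apart in RAB31 and 0.54 in RAB22A, and neither gene passed. RAB31 differed by -1.07 within the 2 arrays and by -1.05 within the other 4, and RAB22A by -1.45 and -0.73.

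The remaining endosomal members lay closer to 0 and on both sides of it. RAB35, which drives fast recycling to the plasma membrane, was the only member whose knockdown arrays all lay above the control arrays: it read 7.71, 7.65 and 7.57 against 8.10, 7.96 and 8.24. That difference was 0.46 ± 0.23 log2 units (SE), 1.37-fold higher, with a limma adjusted p of 0.471, and was 0.45 within the 2 arrays that lay apart and 0.46 within the other 4. RAB21, which follows integrins through endosomes, and RAB11B, a recycling-endosome isoform, had small negative differences without overlap (-0.39 and -0.29). RAB11A, its near twin, had -0.35 with overlapping arrays, and RAB25, the epithelial isoform of that branch, was dim and at 0.12. The isoforms of RAB5, the master regulator of early endosomes, stayed between 0.02 and 0.14 (RAB5B 0.02, RAB5A 0.04, RAB5C 0.14), with 95% intervals that all lay within -0.75 to 0.81, so a 2-fold change lies outside them. RAB5A read 10.01, 9.42 and 10.26 in the control arrays and 9.47, 10.16 and 10.18 with SLU7 siRNA, with the lowest reading of each group in the arrays that lay apart. RAB4A (-0.31) and RAB4B (-0.36), of rapid recycling, were both lowest among the controls in replicate 2 (4.16 and 6.51, against 5.65 to 5.72 and 7.63 to 7.79 in the other controls). RAB15 (-0.40), RAB14 (-0.05), RAB20 (0.33) and RAB17 (0.39) overlapped between the groups. None of the 16 passed, 9 were below 0, and the median was -0.17.

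Promoter sequences are shown for the RAB22 branch and for RAB35, because RAB31 and RAB22A had the lowest p of the endosomal members and RAB35 was the member whose knockdown arrays all lay higher. They come from RefSeq (GRCh38.p14), run from 250 bases before to 50 after the annotated start on the strand of the gene, and were found for 44 of the 57 members. RAB26 and RAB37 are not among them. Capitals mark ACGTG on either strand, letters found in many hypoxia response elements and in the palindromic E-box CACGTG, in which ACGTG matches on both strands. Other forms of the hypoxia response element were not searched for. RAB31 lies at chr18:9708051-9708350 (plus strand), RAB22A at chr20:58309465-58309764 (plus strand) and RAB35 at chr12:120116704-120117003 (minus strand).
RAB31: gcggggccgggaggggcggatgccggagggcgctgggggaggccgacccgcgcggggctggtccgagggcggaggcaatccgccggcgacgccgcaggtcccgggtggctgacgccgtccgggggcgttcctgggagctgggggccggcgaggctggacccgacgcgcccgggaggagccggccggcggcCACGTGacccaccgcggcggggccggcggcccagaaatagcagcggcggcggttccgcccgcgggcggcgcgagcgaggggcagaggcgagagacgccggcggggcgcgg
RAB22A: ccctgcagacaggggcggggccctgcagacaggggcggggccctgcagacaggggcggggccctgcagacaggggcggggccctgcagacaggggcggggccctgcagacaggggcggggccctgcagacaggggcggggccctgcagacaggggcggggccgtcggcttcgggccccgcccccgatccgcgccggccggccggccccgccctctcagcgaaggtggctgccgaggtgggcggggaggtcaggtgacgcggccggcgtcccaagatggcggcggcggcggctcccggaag
RAB35: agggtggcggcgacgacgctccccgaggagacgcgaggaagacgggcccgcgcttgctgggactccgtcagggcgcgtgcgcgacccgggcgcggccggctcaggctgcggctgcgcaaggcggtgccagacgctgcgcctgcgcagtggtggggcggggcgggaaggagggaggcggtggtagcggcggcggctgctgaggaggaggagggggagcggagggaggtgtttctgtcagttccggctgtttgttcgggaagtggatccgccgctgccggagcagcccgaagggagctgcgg
RAB31 holds 1 CACGTG, and neither motif is found in the windows of RAB22A or RAB35. ACGTG occurs in 21.4% of all 35116 promoter windows of this length and in 16 of the 60 windows of members (26.7%), and CACGTG in 7.26% of all windows and in 6 of the 60 (10.0%). These 60 windows belong to 44 genes, so some are of the same gene. All 3 windows are rich in G and C (82.7%, 80.3% and 74.0%), above the median of 65.3% over the 60 windows of members and 58.7% over all windows. These are letter matches and no measure of binding.

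In the late endosomal and lysosomal group the differences were small and divided evenly, with 4 of 8 below 0, a median of -0.01 and no member past the test. RAB7A, which matures late endosomes and drives fusion with lysosomes, had the most positive difference of the whole family. It read 9.95, 8.71 and 9.78 in the control arrays and 9.54, 10.35 and 10.31 with SLU7 siRNA. The groups overlapped, and the lowest reading of each was in one of the arrays that lay apart, so the difference of 0.59 ± 0.39 log2 units (SE, limma adjusted p = 0.619) ranged from 0.20 to 0.85 when arrays were left out in turn. RAB9A, which returns mannose 6-phosphate receptors to the Golgi, was at 0.15, RAB9B at 0.01 and RAB24, linked to autophagy, at -0.03. RAB34 (-0.31), RAB36 (-0.12), RAB39 (-0.12, the gene now called RAB39A) and RAB39B (0.06) completed the group. In the small group of lysosome-related organelles RAB32, which also sits on mitochondria and lipid droplets, read 10.87, 10.39 and 10.53 in the control arrays and 9.48, 9.88 and 10.08 with SLU7 siRNA. The groups were 0.30 log2 units apart, and the difference of -0.78 ± 0.27 (SE), 1.72-fold lower, had a limma adjusted p of 0.261 and was -0.91 within the 2 arrays that lay apart and -0.72 within the other 4. Its relatives RAB38 (0.00) and RAB29 (-0.13), a partner of the kinase LRRK2, overlapped between the groups.

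The RABs of the endoplasmic reticulum and Golgi, through which every secreted liver protein passes, were centred on 0: 6 of 12 lay below, the median was -0.02 and none passed the test. RAB1A, which with RAB1B tethers vesicles between the endoplasmic reticulum and the Golgi, read 12.70, 11.98 and 12.31 in the control arrays and 12.00, 12.31 and 12.44 with SLU7 siRNA. Its difference was -0.08 with a 95% interval of -0.73 to 0.56, and RAB1B differed by -0.22 (-0.78 to 0.34), so a 2-fold change lies outside both intervals. RAB18, a GTPase of lipid droplets and of the endoplasmic reticulum, had the lowest value of the group. It read 7.38, 6.47 and 7.45 against 5.99, 6.93 and 5.63, with 1 knockdown array above 1 control array, and its difference of -0.92 ± 0.41 (SE) had a limma adjusted p of 0.394. It was -0.48 within the 2 arrays that lay apart and -1.14 within the other 4. RAB6A, which acts in retrograde transport at the Golgi, differed by -0.42 without overlap by a margin of 0.06 log2 units, and its isoforms RAB6B (-0.05) and RAB6C (0.01, dim in both groups) lay nearer to 0. RAB2A (-0.21), RAB2B (0.04), RAB43 (0.14), RAB33B (0.30), RAB30 (0.32) and RAB33A (0.46) were the others. RAB33A was dim in the control arrays (mean 4.83), which leaves its fold uncertain. Its difference was -0.03 within the 2 arrays that lay apart and 0.70 within the other 4.

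Members that deliver cargo to the plasma membrane or the cilium also stayed near 0, with 2 of 6 below 0, a median of 0.11 and none past the test. RAB8A, which moves vesicles to the apical surface and the cilium, read 9.75, 9.53 and 9.79 in the control arrays and 9.75, 10.40 and 10.06 with SLU7 siRNA, a difference of 0.38 with a limma adjusted p of 0.645 that ranged from 0.21 without SLU7 siRNA replicate 2 to 0.54 as arrays were left out. RAB13 (-0.34), a GTPase of tight junctions, RAB10 (-0.17), RAB8B (0.11), RAB28 (0.12) and RAB23 (0.18) overlapped between the groups. The mean of the 2 arrays that lay apart minus that of the other 4 was -1.22 log2 units in RAB10, which read 9.43, 8.57 and 9.75 against 8.14, 9.61 and 9.50. That shift is larger than its difference between the siRNAs, and so it was in RAB8B, which read 7.45, 6.17 and 7.32 against 6.28, 7.82 and 7.17. Such shifts were not particular to these genes, and in RAB34 the shift was 1.30. Over the 57 members the median absolute shift was 0.36, against 0.25 for the difference between the siRNAs. Over all clusters these were 0.40 and 0.29. The RAB40 genes, which carry a SOCS box and form ubiquitin ligases, gave 0.05 (RAB40B), 0.03 (RAB40C) and -0.29 (RAB40A). RAB40B read 8.63, 9.05 and 8.74 against 9.16, 8.54 and 8.89. RAB42 (0.10) and the pseudogene RAB9BP1 (0.42) were dim in both groups and scattered by more than 1 log2 unit among the knockdown arrays (SD 1.09 and 1.07). In all, 7 members had means under the lower quartile in both groups (RAB3C, RAB6C, RAB9BP1, RAB25, RAB39, RAB40A and RAB42), and their fold changes are uncertain.

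**Figure D3:**
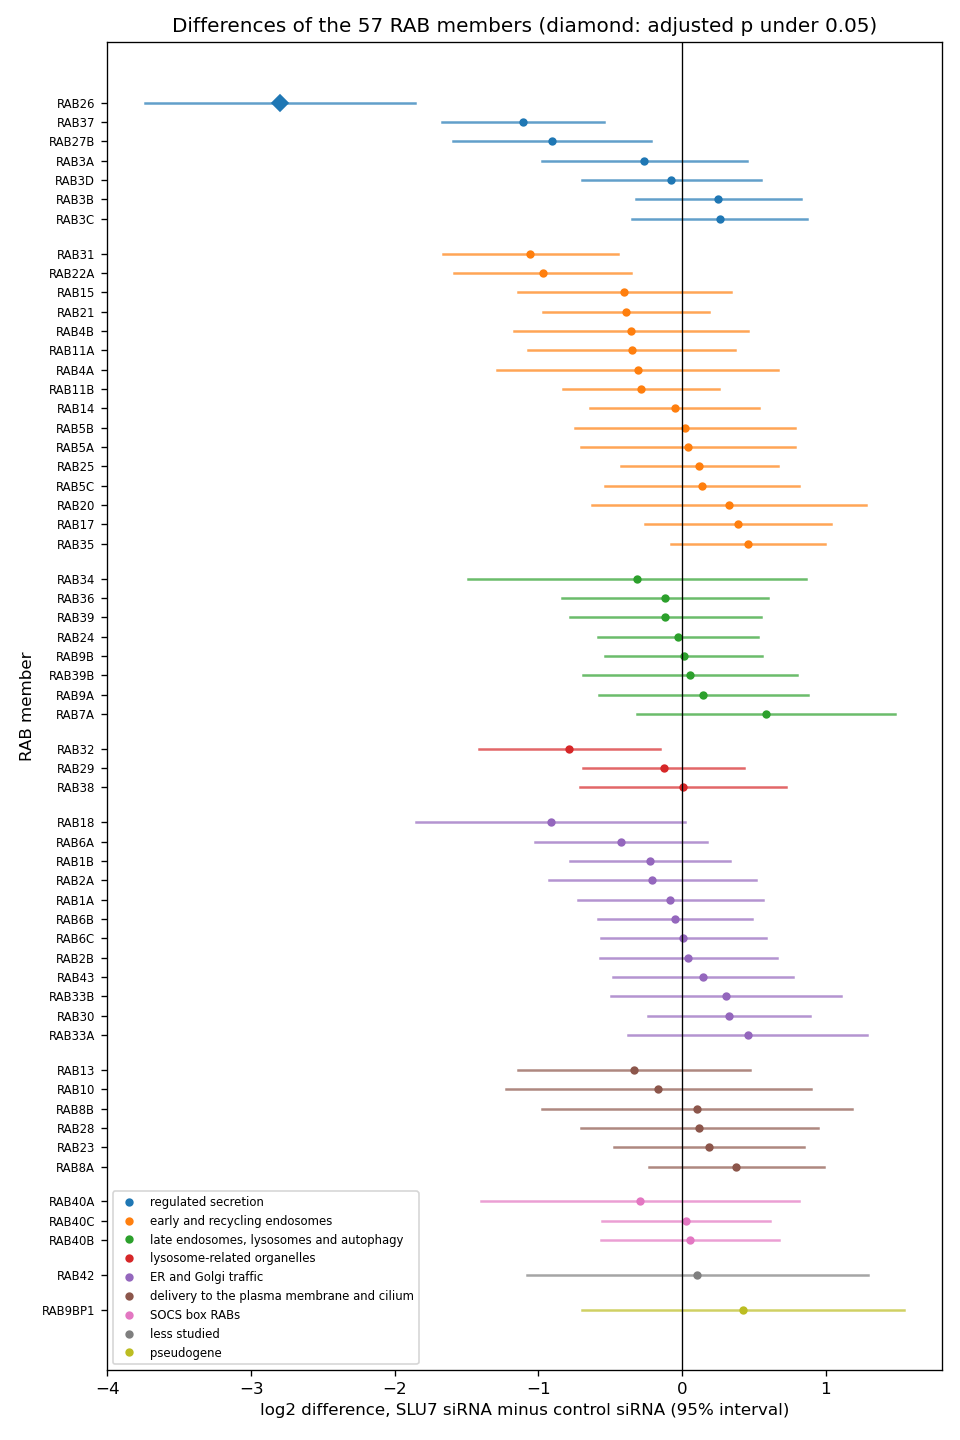
Log2 difference between SLU7 siRNA and control siRNA (x axis) with its 95% interval from limma for each of the 57 RAB members (y axis), coloured by role. RAB26 (diamond) is the member past an adjusted p of 0.05, and the intervals of RAB37, RAB31, RAB22A, RAB27B and RAB32 also lie below 0.

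The direction of the differences was compared between the arrays that lay apart and the rest, since these subsets share no array. Of the 57 members, 38 (66.7%) had the same sign within the 2 arrays and within the other 4, against 64.5% of all clusters. Across the 57 members the 2 sets of differences correlated at r = 0.61 (0.38 without RAB26), and across all clusters at r = 0.45, where genes are not independent and these values are descriptions. The 3 arrays of each group did not overlap in 9 members that were lower and 1 that was higher, or 15.8% and 1.75% of the family, where 9.21% and 9.64% of all clusters did so. Both directions together give 17.5% of members against 18.9% of all clusters, so the share is near the background, and whether the split by direction differs from that of other genes was not tested. The 9 lower members were RAB26, RAB37, RAB31, RAB22A, RAB27B, RAB32, RAB6A, RAB21 and RAB11B.

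**Figure D4:**
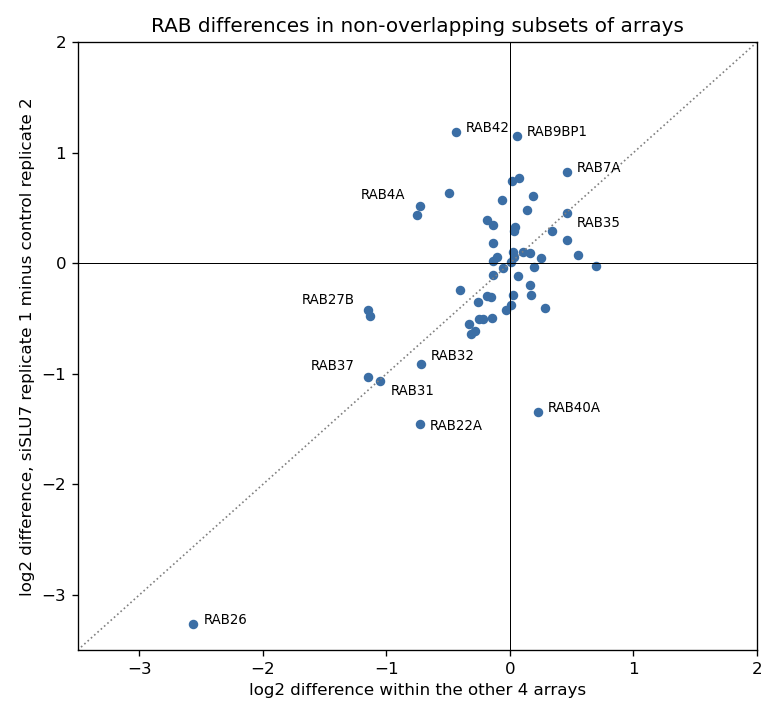
Log2 difference of each RAB member within the arrays that lay apart (y axis, SLU7 siRNA replicate 1 minus control replicate 2) against the difference within the other 4 arrays (x axis), with the line of equality dotted. RAB26, RAB37, RAB31, RAB22A, RAB27B and RAB32 lie in the lower left, with RAB26 furthest from 0.

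The genes that run the RAB cycle were examined beside the GTPases, 114 of 137 listed. Of these, RIN2 fell, none rose and 113 did not pass the test, beside 0.433% of all clusters called in either direction. At an unadjusted limma p under 0.05, 14 of the 114 were lower and 5 higher, where 6.54% and 6.55% of all clusters were. Their median was -0.13 log2 units, with 75 of 114 below 0 (65.8%, against 49.5% of all clusters). Within the 2 arrays that lay apart the median was -0.19, and within the other 4 it was -0.07. Over all clusters these medians were -0.02 and 0.02.

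RIN2, an exchange factor for RAB5, read 6.40, 5.97 and 5.95 in the control arrays and 4.63, 3.87 and 3.68 with SLU7 siRNA. The groups lay 1.33 log2 units apart, and the knockdown arrays were below their lower quartile, which leaves the fold uncertain. The difference was -2.05 ± 0.32 log2 units (SE), 4.13-fold lower, with a limma adjusted p of 0.0483. It was -1.35 within the 2 arrays that lay apart and -2.40 within the other 4. As with RAB26, no analysis without an array kept it under the threshold (adjusted p from 0.0722 without control replicate 2 to 0.202 without SLU7 siRNA replicate 2, and 0.165, 0.180, 0.0754 and 0.142 without control replicates 1 and 3 and SLU7 siRNA replicates 1 and 3). In each of these analyses 0 of all clusters were called. The other RAB5 exchange factors measured were also below 0 but did not pass: RABGEF1 at -1.33 (limma adjusted p = 0.201), GAPVD1 at -0.64, RIN1 at -0.29 and RIN3 at -0.12. This grouping by partner, and those that follow, were drawn up after the values were known. Groups drawn up in the same way also lay near 0. The 13 DENN-domain exchange factors had 6 below 0 and a median of 0.00. The 5 RAB7 partners had 4 below 0 and a median of -0.02.

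The 46 effectors had a median of -0.20 with 33 below 0 and none past the test. Their median was -0.27 within the 2 arrays that lay apart and -0.10 within the other 4. The lowest p among them was that of RBSN (rabenosyn-5, which links RAB4 and RAB5 on early endosomes), which read 7.07, 7.12 and 7.01 in the control arrays and 7.92, 8.21 and 8.28 with SLU7 siRNA, a difference of 1.07 ± 0.24 log2 units (SE, limma adjusted p = 0.0937). EEA1, the early endosome tether, went the other way at -1.02 (adjusted p = 0.267). RAB11FIP4, a RAB11 partner, was at -1.73 ± 0.41 (limma adjusted p = 0.109) and dim with SLU7 siRNA, which leaves its fold uncertain. The other RAB11 effectors measured lay between -0.22 (RAB11FIP5) and 0.28 (RAB11FIP2). Among 8 measured effectors of RAB27, 6 were below 0 with a median of -0.56, including SYTL4 (granuphilin, -0.66, without overlap between groups), SYTL5 (-0.80, dim with SLU7 siRNA), SYTL1 (-0.79) and MYRIP (-0.89, dim in both groups), these 3 with overlapping arrays, while SYTL2 (0.09) and MLPH (0.07) were not. EXPH5, also dim in both groups, is among the 6 at -0.45. None of the 8 passed. Their median was -0.83 within the 2 arrays that lay apart and -0.18 within the other 4, and 5 of the 8 had the same sign in both.

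Among the 40 exchange factors and their subunits the median was -0.02 with 22 below 0. Subunits of TRAPP, the exchange complex for RAB1, went in both directions: TRAPPC2L was at 1.49 ± 0.35 log2 units (SE, limma adjusted p = 0.11) and TRAPPC6A at -0.87 ± 0.24 (adjusted p = 0.149), each without overlap between groups. The 23 TBC-domain proteins had a median of -0.21 with 16 below 0 and none past the test, and SGSM3 had the lowest p (-1.16 ± 0.32 log2 units, limma adjusted p = 0.153). Of 5 genes for prenylation and membrane extraction none passed and 4 were below 0: RABAC1, a prenylated RAB acceptor with the lowest p of this list, at -0.54 (8.23, 8.09 and 8.13 in the control arrays against 7.40, 7.72 and 7.72), the dissociation inhibitor GDI2 at -0.50, and the subunits of RAB geranylgeranyl transferase RABGGTA at -0.33 and RABGGTB at -0.64. CHML, a RAB escort protein, was at 0.36.

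**Figure D5:**
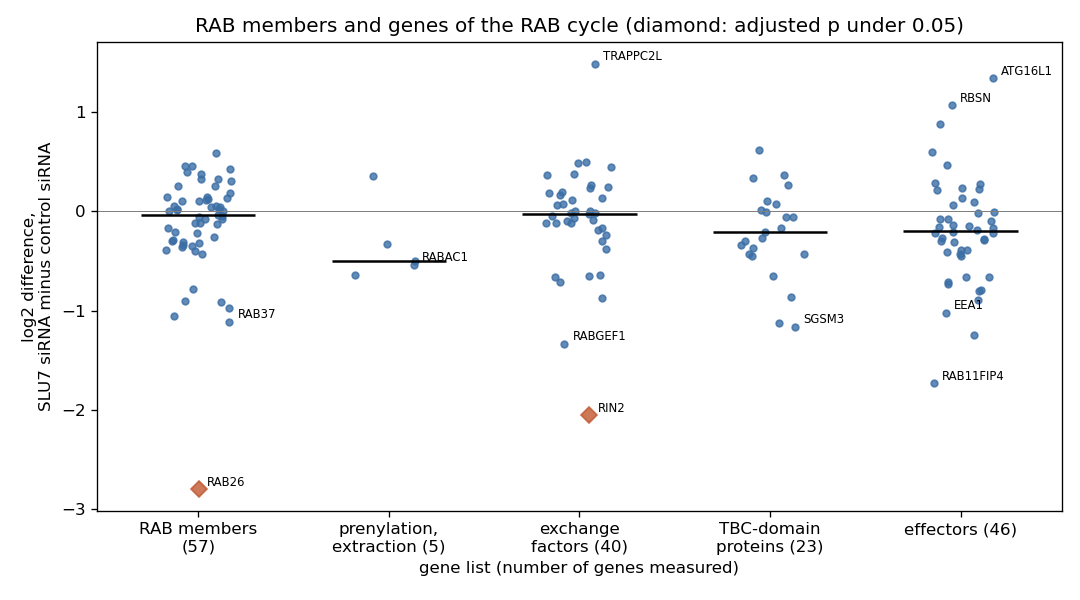
Log2 difference between SLU7 siRNA and control siRNA (y axis) for the 57 RAB members and the 114 measured genes of the RAB cycle by list (x axis), each point a gene, diamonds past an adjusted p of 0.05 and bars the medians. RAB26 and RIN2 are the diamonds, and the list medians run from -0.50 to -0.02.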

How the data were processed

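RNA from 6 PLC/PRF/5 samples was measured on Affymetrix Human Exon 1.0 ST arrays. Summaries follow the core definition distributed with aroma.affymetrix, per the labels, and the submitters' processing notes name RMA. The deposited values are log2 expression, as read from their range. The authors' genome build was not given in the sources used here, and no array coordinates are printed. Symbols are those of the GEO platform table, brought up to date through the RefSeq table of GRCh38.p14 where an older symbol belonged to 1 gene. In lists a gene was represented by its brightest cluster.

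Groups were compared with limma (3.58.1, R 4.3.3), lmFit and eBayes without a trend, on all 18708 clusters without a filter (prior of 4.49 and 4 residual degrees of freedom, typical SE 0.312). The number of arrays limits the precision. Folds were computed by exponentiating log2 differences to base 2. All members may be named. Array values, statistics or both are given for members with an unadjusted p under 0.05 and the brightest member of each role. The same holds for called or lowest-p genes of each list. SLU7, RAB35, RAB18 and other genes singled out after their values were seen were treated likewise. The members and lists were chosen with earlier results of these data known. Alternatives were a replicate block, leaving out the dimmer clusters (under the 25th percentile), quantile normalization, median centring, a threshold of 0.01, array weights, a trend with robust shrinkage, averaging a gene's clusters, leaving out each array, and modelling or leaving out the 2 arrays that lay apart. No 2 arrays were copies (correlations 0.926 to 0.974).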

Additional observations from a re-analysis of the deposited data

How the results depend on the processing

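The median difference of the RAB members moved by less than the pooled SD of their median level between replicate arrays (0.12) under every alternative run (-0.12 to -0.01 when arrays were left out), and no alternative called a member higher. RAB26 was called lower, with limma adjusted p from 0.00697 to 0.0471 with the trend, array weights, array split, quantile normalization, median centring, the mean of clusters and without the dimmer clusters. RAB37 joined it (2 members) under a trend with robust shrinkage, array weights, a block for the array split, and without the dimmer clusters. That last setting tests fewer clusters and also estimates limma's prior anew. The cause was not tested in any of the 4. In these 4 settings SLU7 passed too (limma adjusted p 0.033, 0.0269, 0.043 and 0.0412, with differences of -1.51 and, with array weights, -1.61), and genes of the RAB cycle called numbered 3, 4, 7 and 2 in place of 1. Over all clusters these settings called 441, 575, 783 and 324, against 81 in the fit reported, and the replicate block and each analysis without 1 array called 0. The array split was read off these same arrays, which lowers the error of that fit, and its p-values are no independent check. 0 members, 0 genes of the RAB cycle and 0 of all clusters were called at a threshold of 0.01 and without both arrays that lay apart. The same held without any 1 array (0 to 0, and SLU7 from -1.69 to -1.25). With the replicate block, 0 of these were called and RAB26 had a limma adjusted p of 0.161. The replicate numbers did not pair the arrays (correlations of deviations -0.381, -0.314 and 0.141 for replicates 1, 2 and 3, with control replicate 2 closest to SLU7 siRNA replicate 1 at 0.517), so the block says nothing of the size of the difference. Differences near 0 (RAB1A, RAB5A, RAB40B, RAB42) changed sign in 2 to 4 of the settings. The median SE among members was 0.291 log2 units, and RAB37 and RAB31, both beyond a 2-fold difference, did not pass.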
